A study of Mus musculus with 6 samples.

Results

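The genes described here build, modify or carry the sugar chains of proteoglycans and make or cleave hyaluronan, and they were measured in endothelial cells sorted from LN. They were listed by name as 35 genes, of which 32 had at least 1 probe set of their own on the array, with 76 probe sets in all, out of 18193 genes measured. Where a gene had several, the brightest by mean of the 6 arrays stood for it. Hyal1 had only probe sets shared with another gene, and Ndst1 and Xylt1 were not analysed here.

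The cells came from skin-draining and mesenteric LN of 6-week-old C57BL/6 mice, for which no transgene or treatment is named, pooled across nodes, depleted of CD45+ cells with magnetic beads and sorted by gp38 and CD31. 3 arrays carry the gate label double positive (gp38+ CD31+) and 3 the gate label CD31+, with replicates numbered 1 to 3 in each group and described as independent paired samples. The labels also call the double-positive arrays BEC and the CD31+ arrays LEC, but by the sort gates of the study gp38+ CD31+ cells are the LEC, so the groups are named here by the gate, and every sign would turn if the cell type word were followed. The RNA (20 ng per sample) was amplified in 2 rounds before hybridization, and the values are GCRMA log2 values with a floor at 2.39.

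Pdpn, which encodes gp38, had log2 values of 7.28 to 8.32 on the double-positive arrays and 3.29 to 3.75 on the CD31+ arrays. Of 10 lymphatic endothelial markers 7 passed the test as higher, and of 10 blood endothelial markers 6 passed as lower on the double-positive side. All of these markers lost the call in limma when arrays sharing a number were fitted as blocks. For the lymphatic ones that had passed, adjusted p then ran from 0.132 (Tbx1) to 0.258 (Fxyd6) in limma. For the blood ones it ran from 0.0912 (Cxcl12) to 0.201 (Nrp1) in limma. Prox1 had 7.50 and 7.43 at its brightest probe set, with overlapping groups, and 7.17 and 3.46 at another, with no overlap. The probe set of Pecam1 (CD31) lay near the floor at 2.41 and 2.48. Over probe sets whose mean was 5 or more, a level 21.9% of all genes reached, the array medians were 7.07 to 7.31 for double positive and 6.16 to 6.66 for CD31+. Centring the arrays on these medians lowers every difference by 0.68, so a difference near that size turns on the scaling. In both groups the array numbered 2 stood apart in the B1 repeat control, with 12.8 and 12.3, where the other 4 arrays lay between 7.47 and 8.11.

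Proteoglycans are proteins that carry long chains of heparan, chondroitin or dermatan sulfate. A chain starts with xylose on a serine of the core protein, is extended by polymerases in the Golgi, and is then trimmed, epimerized and sulfated, and the pattern of sulfate decides which chemokines and growth factors the chain holds. Heparan sulfate on endothelium presents chemokines to lymphocytes, and secreted sulfatases edit it after it has reached the surface. Hyaluronan is a chain without a core protein or sulfate that is spun out at the plasma membrane, drains with lymph and is taken up and broken down in LN sinuses.

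In the double-positive arrays Sulf2 rose about 15.3-fold, against CD31+ values near the floor, and it was the only one of the 32 genes to pass 5% FDR over all 45037 probe sets in limma. Sdc1 and Bgn were 14.4-fold and 3.87-fold above the CD31+ arrays and passed when dim probe sets were left out before the test. No gene of the list passed as lower. The heparan sulfate polymerases, the glypicans, the hyaluronan synthases, Hyal2 and Chst11 differed by at most 0.73 on the log2 scale. Of these genes, all but Extl2, Hyal2 and Chst11 were among the dim probe sets left out. For arrays of RNA from sorted cells, fewer cells of a type and less RNA per cell cannot be told apart.

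In counts, limma called 1 of the 32 genes higher (3.12%), where 0.879% of all 18193 genes were called higher, and 0 lower, where 0.176% were. Without adjustment, at p under 0.05, 6 genes were higher, against 12.5% of all genes, and 1 was lower, against 2.12%. The groups did not overlap for 7 genes that were higher and 2 that were lower, where 16.9% and 3.42% of all genes were so placed. With a difference of at least 1 as well, 3 remained higher and 0 lower, beside 9.31% and 1.5% of all genes. The median difference of the 32 genes was 0.07 on the log2 scale, and that of all genes was 0.00. Among the 9 with a mean of at least 5 it was 0.48, and it was 0.73 among the 3984 genes of all that reached this mean. Of these 9 genes, 2 were higher by at least 1 without overlap and 0 lower, where 31.7% and 3.64% of such genes were.

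**Figure D1:**
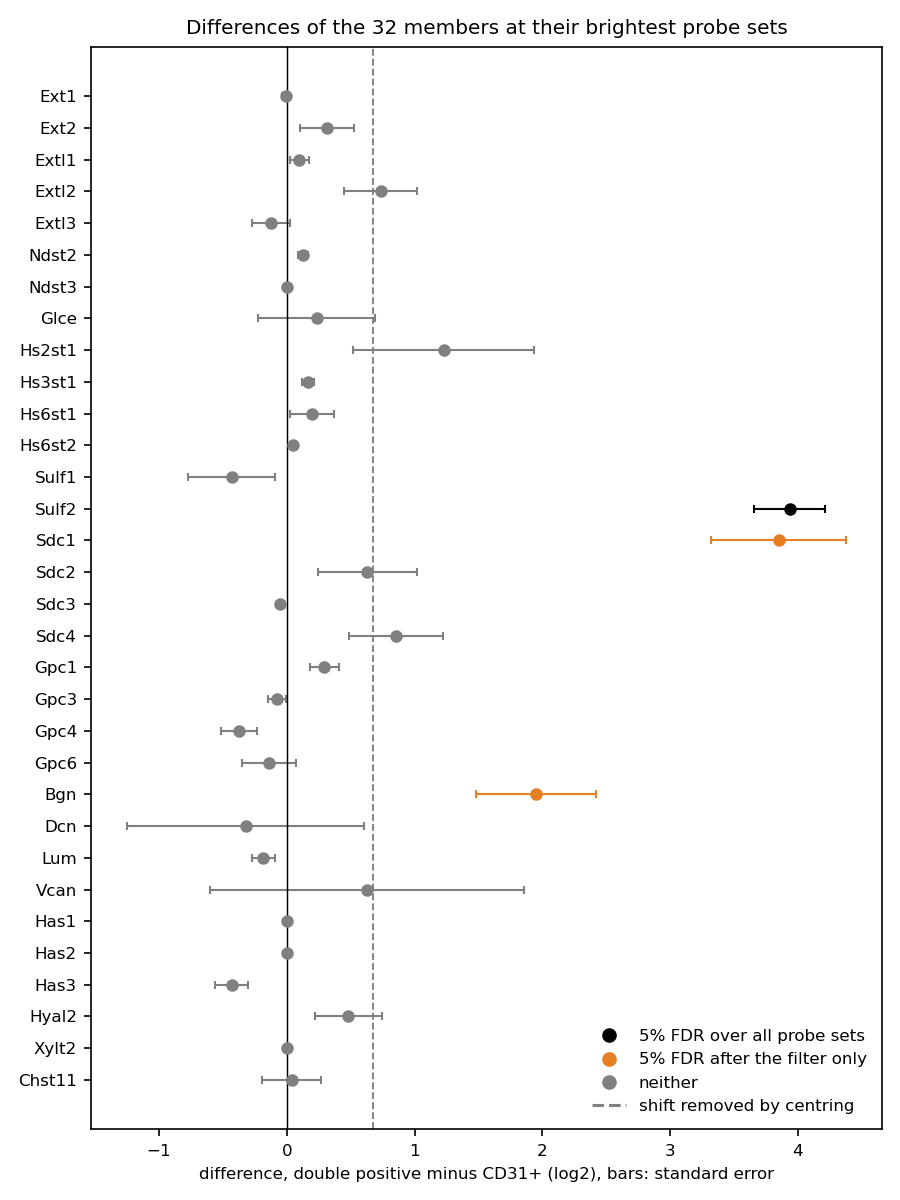
Difference of each of the 32 genes (double positive minus CD31+, log2, x axis), with points at the fitted difference and bars of 1 standard error. Sulf2 (black) passed 5% FDR over all probe sets, Sdc1 and Bgn (orange) passed after the filter on dim probe sets, and the dashed line at 0.68 marks the shift that centring removes.

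The filter asked for a log2 value of 5 or more on 3 or more arrays. It left 10 of the 32 genes to be tested, of which 3 were called higher (30.0%) and 0 lower, where 33.2% of the 4207 genes tested were called higher and 4.11% lower. Sulf2 passed the filter through its double-positive arrays alone. With the replicate number as a block and no filter limma called 0 of the 32 genes, with 0.011% of all genes called higher. At an unadjusted p under 0.05 that fit gave 4 higher, where 12.6% of all genes were, and 1 lower, where 2.06% were. With the block and the filter it called 4 higher and 0 lower, where 46.4% and 4.99% of genes were, and with the filter and centred arrays 3 higher and 1 lower, where 12.6% and 9.63% were. With the filter, Sulf2, Sdc1 and Bgn were the 3 called higher with any 1 array left out, and there were 0 lower except for Dcn without CD31+ replicate 3. These fits kept the probe sets that met the filter on all 6 arrays. Applied anew to the remaining arrays, the filter would drop Sulf2 whenever a double-positive array is left out.

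The promoters of Sulf2, Sdc1 and Bgn are shown since these genes separated the groups most. The sequences are the 250 bases before the outermost start of each gene, 5′ to 3′ on the strand of the gene, from RefSeq on GRCm38.p6, in which 23 of the 35 genes have a promoter entry. They lie at chr2:166155684-166155933 on the minus strand for Sulf2, chr12:8771146-8771395 on the plus strand for Sdc1 and chrX:73483351-73483600 on the plus strand for Bgn. Capitals mark matches on either strand to GGGCGG, the core of the GC box, to TATAAA, the TATA box, and to CCGGAA, a core of ETS factor sites.
Sulf2: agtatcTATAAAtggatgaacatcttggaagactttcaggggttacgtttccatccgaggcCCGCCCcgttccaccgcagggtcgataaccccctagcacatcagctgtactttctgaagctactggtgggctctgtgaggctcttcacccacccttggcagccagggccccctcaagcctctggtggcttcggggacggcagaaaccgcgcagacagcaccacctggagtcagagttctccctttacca
Sdc1: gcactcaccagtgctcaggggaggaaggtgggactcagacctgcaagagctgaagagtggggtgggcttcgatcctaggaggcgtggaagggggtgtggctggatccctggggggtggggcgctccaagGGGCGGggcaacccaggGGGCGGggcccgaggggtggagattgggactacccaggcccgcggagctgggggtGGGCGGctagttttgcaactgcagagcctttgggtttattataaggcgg
Bgn: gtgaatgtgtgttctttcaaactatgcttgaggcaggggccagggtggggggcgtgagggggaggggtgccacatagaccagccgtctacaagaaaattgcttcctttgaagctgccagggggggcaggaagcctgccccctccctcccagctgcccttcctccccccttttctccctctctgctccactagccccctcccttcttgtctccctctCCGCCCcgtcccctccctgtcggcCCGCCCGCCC
GGGCGG occurs once in the Sulf2 promoter and 3 times in each of the other promoters, and in Bgn the last pair of matches share bases. It occurs in 32.7% of the 32851 promoters of the table, cut to the same length. TATAAA occurs at Sulf2, 244 to 239 bases before the start, and in 12.4% of all promoters. CCGGAA was found in none of the 3 windows and in 12.0% of all promoters. The GC content was 57.2% for Sulf2, 66.0% for Sdc1 and 64.4% for Bgn, against a median of 52.4% over the table.

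Sulf1 and Sulf2 encode the secreted endosulfatases that remove sulfate from heparan sulfate outside the cell. Sulf2 had log2 values of 7.08, 6.42 and 7.20 on the double-positive arrays and 3.28, 2.80 and 2.81 on the CD31+ arrays. The groups lay far apart, with the CD31+ values near the floor. The difference was 3.94 (standard error, SE, 0.277, adjusted p = 0.0309 in limma, higher in 3 of 3 pairs of arrays with the same number). With the replicate block the adjusted p was 0.180, and with any 1 array left out other than double positive replicate 2 the gene no longer passed, while the difference ran from 3.79 to 4.18. It also passed with the filter, which it met through the group where it was high.

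The value of Sulf2 rests on a single probe set. Its name ends in _x_at, a suffix that marks probes that may also match other transcripts. The other probe sets of the gene differed by 0.07 and 0.36 and had values of at most 3.51 on every array. With the probe sets averaged, Sulf2 differed by 1.46 and still passed (adjusted p = 0.0290 in limma).

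Sulf1 had 7.88, 8.94 and 8.09 on the double-positive arrays and 8.76, 8.97 and 8.47 on the CD31+ arrays, and the groups overlapped. It differed by -0.43 (SE 0.340, adjusted p = 0.659 in limma), and by -0.10 at its second probe set, with the last one on the floor. With the filter and centred arrays the difference became -1.11 and passed as lower (adjusted p = 0.0396 in limma). So the sulfatase probe sets gave a called difference for Sulf2 and, on the scale as deposited, none for Sulf1, and the contrast between the genes was not itself tested.

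**Figure D2:**
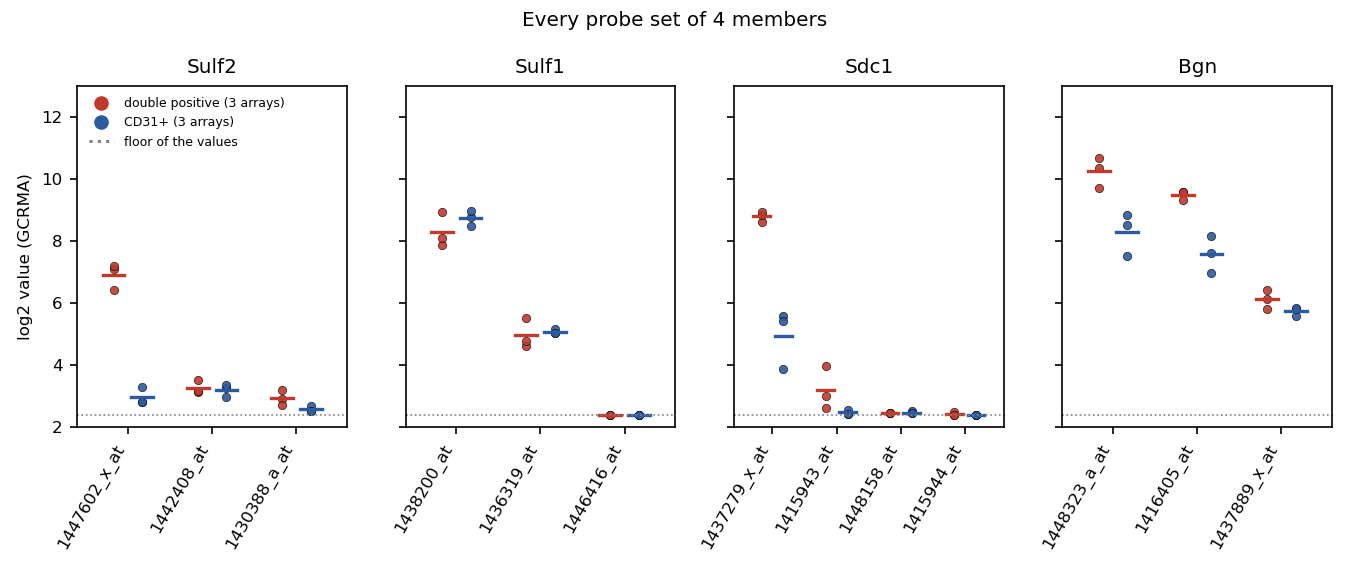
Log2 values (GCRMA, y axis) of every probe set of Sulf2, Sulf1, Sdc1 and Bgn on each array, with 3 red points for the double-positive arrays, 3 blue points for the CD31+ arrays, lines at the group means and a dotted line at the floor. Only the brightest probe set separates the groups widely for Sulf2 (6.90 against 2.96) and Sdc1 (8.80 against 4.95), whereas a pair of Bgn probe sets do so, by 1.95 and 1.92.

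Syndecans are transmembrane proteins that carry heparan sulfate at the cell surface. Sdc1 had log2 values of 8.63, 8.84 and 8.93 on the double-positive arrays and 5.57, 5.41 and 3.87 on the CD31+ arrays. All 3 double-positive values lay above all CD31+ values, and the CD31+ arrays varied widely, with replicate 3 lowest. The difference of 3.85 (SE 0.528) did not pass over all probe sets (adjusted p = 0.0924 in limma) and passed with the filter (adjusted p = 0.000380 in limma). Without CD31+ replicate 3 it was 3.31 and passed over all probe sets (adjusted p = 0.0338 in limma). Sdc1, like Sulf2, was bright at an _x_at probe set alone. Its other probe sets differed by 0.72, 0.04 and -0.02, and with all averaged the difference was 1.15 (adjusted p = 0.0582 in limma). In all, 6 of the 76 probe sets carry this suffix, and they were the brightest of their gene for 2 genes, Sulf2 and Sdc1.

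Sdc1 is also known from plasma cells and epithelium. The 5 plasma cell markers measured summed, on the linear scale, to 26.5 to 27.4 on the double-positive arrays and 27.7 to 31.8 on the CD31+ arrays. Mzb1, Tnfrsf17 and Irf4 lay within 0.1 of the floor on all arrays. The 5 epithelial markers summed to 46.0 to 47.6 and 47.1 to 60.1, with Epcam the brightest at 4.58 and 4.88, and limma called 0 genes of either list.

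Among the other syndecans, Sdc4 had 4.28, 3.30 and 4.49 against 3.21, 3.34 and 2.95, a difference of 0.86 with overlapping groups (adjusted p = 0.659 in limma). Sdc2 differed by 0.63, also with overlap. Sdc3 varied little, from 5.31 to 5.42 over the 6 arrays, and differed by -0.06. Glypicans carry heparan sulfate on a lipid anchor and were dim. At their brightest probe sets Gpc1, Gpc3, Gpc4 and Gpc6 stayed at or below 3.19 on all arrays, with differences from -0.38 (Gpc4, groups not overlapping) to 0.29 (Gpc1). The other probe set of Gpc4 reached 3.42 on CD31+ replicate 2.

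The enzymes that polymerize heparan sulfate differed little, but all except Extl2 were left out by the filter as dim. Ext1 and Ext2 encode the copolymerase that extends the chain. Ext1 stayed between 3.22 and 3.31 on all arrays and differed by -0.01, and Ext2 differed by 0.31. Extl2, a glycosyltransferase of the EXT family that acts on the linker, had 7.55, 6.63 and 7.19 on the double-positive arrays and 6.58, 6.45 and 6.14 on the CD31+ arrays. These groups did not overlap, although the lowest double-positive value exceeded the highest CD31+ value only narrowly. The difference of 0.73 did not pass (adjusted p = 0.588 in limma) and was 0.06 with centred arrays. At its other probe set Extl2 differed by 0.67. Extl3, which adds the sugar that commits the linker to heparan sulfate, differed by -0.13, and Extl1 stayed near the floor at 2.43 to 2.72.

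Of the enzymes that modify the chain, Hs2st1 differed most. Hs2st1, which sulfates the uronic acid, had 6.32, 4.87 and 5.99 on the double-positive arrays and 5.20, 3.31 and 4.98 on the CD31+ arrays. The groups overlapped, but each double-positive array was above the CD31+ array with the same number, and both arrays numbered 2 were the lowest of their group. The difference of 1.23 (SE 0.709) did not pass (adjusted p = 0.659 in limma, 0.108 with the filter), and it passed with the filter and the replicate block (adjusted p = 0.00546 in limma). Its other probe sets differed by at most 0.12.

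Glce, the epimerase that turns glucuronic into iduronic acid, had 4.78, 3.60 and 4.07 against 4.05, 3.28 and 4.42, a difference of 0.23 within the spread of the arrays. The remaining sulfotransferases were dim. Ndst2, which removes acetyl groups and sulfates the nitrogen, differed by 0.13, Hs3st1, which makes the antithrombin site, by 0.16, Hs6st1 by 0.20 and Hs6st2 by 0.05. Ndst2, Hs3st1 and Hs6st2 did not overlap between groups, yet all values of these 4 genes were at or below 3.23. Ndst3 lay on the floor, within 0.1 of it on all arrays, as did Xylt2, which adds the xylose that starts a chain. Chst11, a sulfotransferase of chondroitin, had 6.30 to 6.71 on the double-positive and 6.05 to 6.70 on the CD31+ arrays, which is 0.04. in difference

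**Figure D3:**
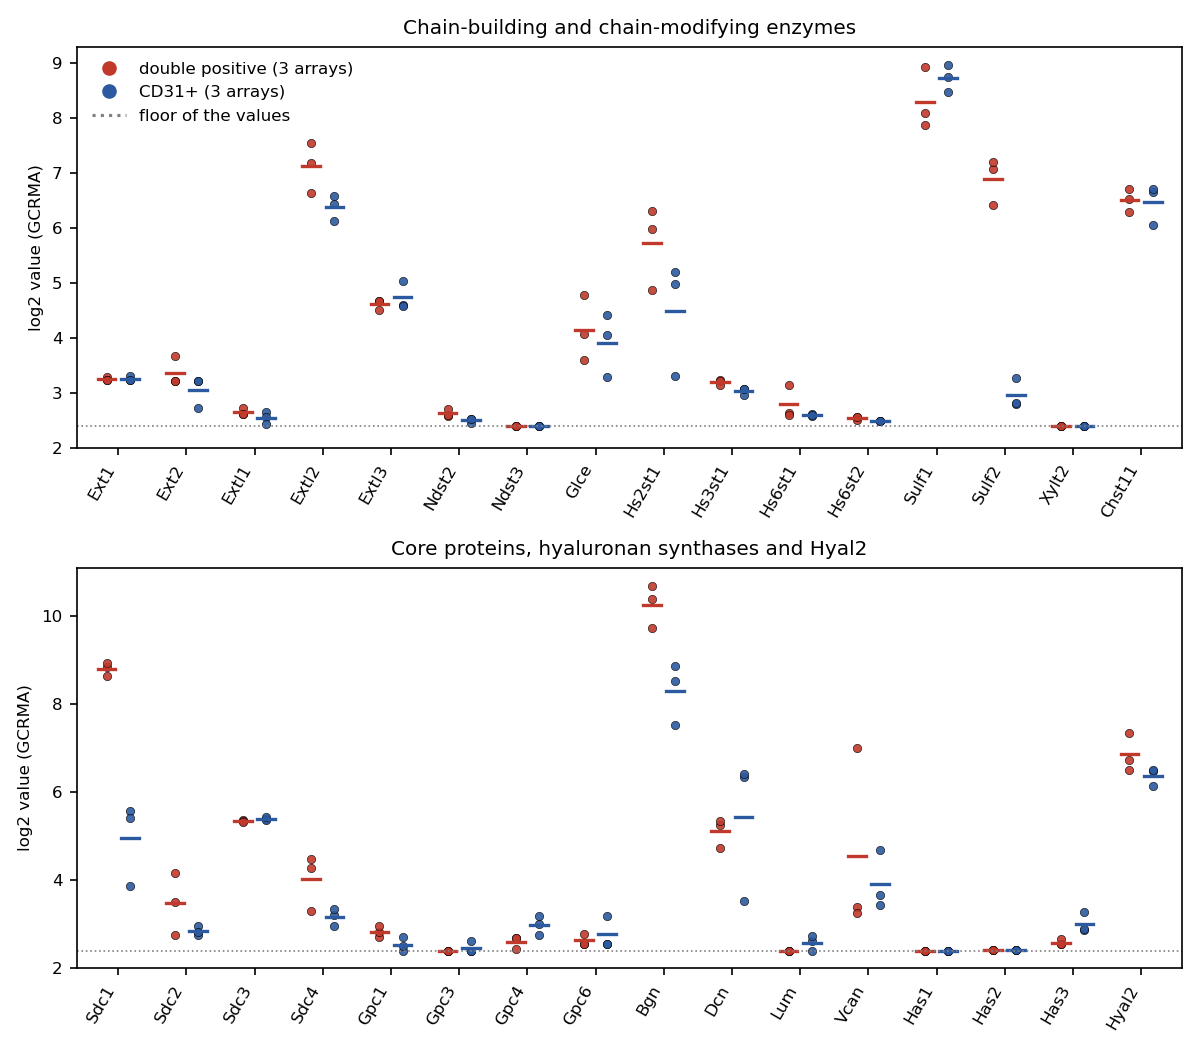
Log2 values (GCRMA, y axis) of the 32 genes at their brightest probe sets on each of the 6 arrays, with 3 red points (double positive) and 3 blue points (CD31+) per gene, lines at the group means and a dotted line at the floor. The groups lie widest apart for Sulf2 in the upper panel and for Sdc1 and Bgn in the lower one, and 20 of the 32 genes stay below 5 on all arrays.

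Bgn, Dcn and Lum encode biglycan, decorin and lumican, small leucine-rich proteins of the matrix, and Vcan encodes versican, a large proteoglycan that binds hyaluronan. Bgn had log2 values of 10.67, 9.71 and 10.36 on the double-positive arrays and 8.85, 8.51 and 7.52 on the CD31+ arrays. All double-positive values were higher, and CD31+ replicate 3 was again the lowest. The difference was 1.95 (SE 0.469, adjusted p = 0.266 in limma, higher in 3 of 3 pairs), and it passed with the filter (adjusted p = 0.00828 in limma) and with the filter and centred arrays, at 1.27 (adjusted p = 0.0183 in limma). A further probe set of Bgn differed by 1.92 and also passed with the filter (adjusted p = 0.00415 in limma), and the last one, an _x_at probe set, differed by 0.39 with overlapping groups.

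Dcn had 5.25, 5.33 and 4.73 on the double-positive arrays and 6.34, 6.42 and 3.53 on the CD31+ arrays. CD31+ replicates 1 and 2 lay above every double-positive array, and replicate 3 lay below all of them. The difference was -0.32 (SE 0.927, adjusted p = 1 in limma). Without CD31+ replicate 3 it was -1.27 and passed as lower with the filter (adjusted p = 0.0198 in limma). Lum was at the floor on the double-positive arrays and at most 2.72 on the CD31+ arrays.

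Vcan had 3.40, 7.0 and 3.26 on the double-positive arrays and 3.43, 4.68 and 3.66 on the CD31+ arrays. The array numbered 2 was the highest of each group, so the difference of 0.63 (SE 1.23) rests on double positive replicate 2 and is -0.59 without it. At the other 7 probe sets of Vcan the values stayed at or below 3.47. The dimmer probe set of Dcn behaved likewise, with 4.15 and 4.10 on the arrays numbered 2 and at most 2.43 on the others.

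Decorin and lumican are products of fibroblasts, and the markers of fibroblastic reticular cells, gp38+ stromal cells without the CD31 that both gates asked for, lay on both sides. Of 9 measured, limma called 2 higher (Postn and Thy1) and 0 lower, and with the filter 3 higher and 4 lower. Of those called with the filter, Thy1, Il7, Pdgfrb and Col1a2 met it only through the group where they were high. With the replicate block and no filter, Postn and Thy1 no longer passed (adjusted p = 0.198 and 0.169 in limma). Summed on the linear scale they ran from 2195 to 3785 on the double-positive and from 348 to 885 on the CD31+ arrays, and without Postn from 198 to 293 and from 250 to 787. Postn was at 11.33 and 6.73 (double positive and CD31+), Thy1 at 6.61 and 3.58 and Il7 at 6.01 and 3.88. Pdgfra was at 2.63 and 4.03, Pdgfrb at 3.97 and 6.89 and Cxcl13 at 4.38 and 6.39. Col1a2 was at 3.34 and 6.45 and Col3a1 at 4.08 and 7.23, while Col1a1 lay at or near the floor in both groups. Among the CD31+ arrays replicate 3 was the lowest for 6 of these 9 markers, as for Dcn, Bgn and Sdc1, but it was so for 67.7% of the 5764 probe sets whose mean was 5 or more and had the lowest array median. The 9 pericyte and smooth muscle markers summed to 289 to 316 and 158 to 591, with Des and Cnn1 at the floor on all arrays, and limma called 0 of them. With the filter 3 could be tested, and Acta2 passed as lower, at 3.98 and 6.32 (adjusted p = 0.0109 in limma). Acta2 met the filter through its CD31+ arrays alone. CD31+ replicate 3 was the lowest of its group for 6 of the 9 pericyte and smooth muscle markers as well. The part of such cells in the values of Bgn and Dcn was not tested.

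**Figure D4:**
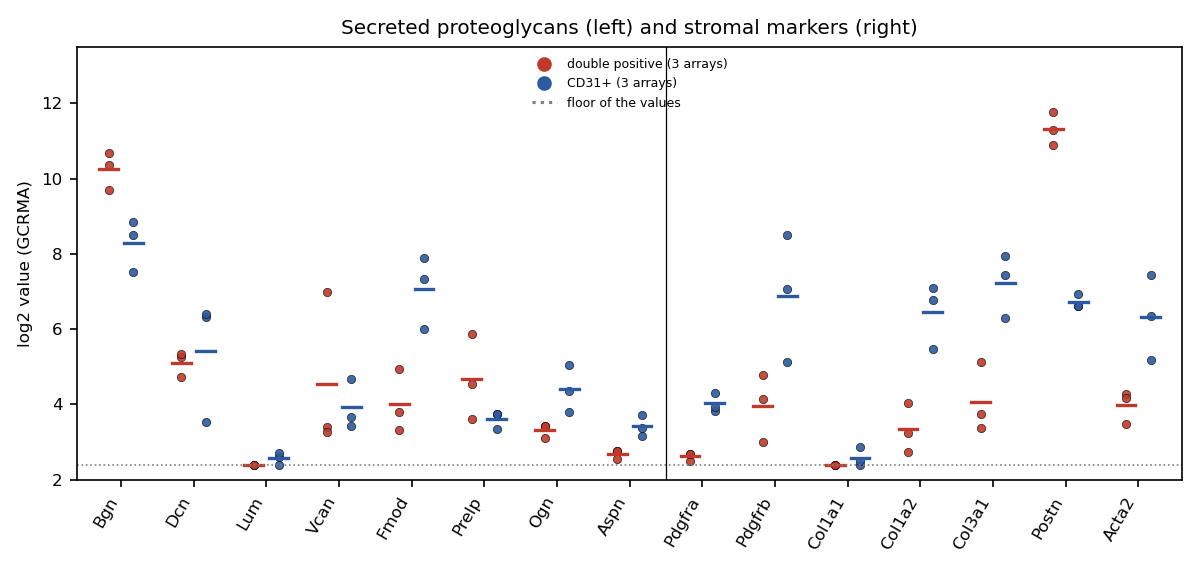
Log2 values (GCRMA, y axis) of 8 secreted proteoglycans (left of the line) and 7 stromal markers (right) on each array, with 3 red points for double positive, 3 blue points for CD31+ and lines at the group means. Bgn and Postn are above in double positive and Fmod, Ogn, Aspn, Pdgfra, Pdgfrb, Col1a2, Col3a1 and Acta2 in CD31+, and the CD31+ values of Dcn split into 2 high and 1 low. The stromal markers Thy1 and Il7, also above in double positive, are not drawn.

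The hyaluronan synthases gave no signal that separated the groups by much. Has1 was at the floor and Has2 at 2.43 on all 6 arrays. Has3 had 2.54, 2.54 and 2.66 on the double-positive arrays and 2.87, 2.90 and 3.27 on the CD31+ arrays. These groups did not overlap, and the difference of -0.43 (SE 0.129, adjusted p = 0.397 in limma) lay close to the floor. Hyal2, a hyaluronidase anchored at the cell surface, had 6.50, 6.73 and 7.33 against 6.47, 6.14 and 6.50, a difference of 0.48 with touching groups (adjusted p = 0.659 in limma) that is -0.20 with centred arrays.

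The other genes of the pathway were listed separately, 88 in all, of which 85 had a probe set of their own. Of these limma called 3 higher (3.53%, beside 0.879% of all genes) and 1 lower (1.18%, beside 0.176%). With the filter 26 could be tested, and 13 were called higher (against 33.2% of all genes tested) and 2 lower (against 4.11%). Of these, 4 of the 13 (Arsb, Bcan, Cemip2 and Stab2) and both lower ones (Esm1 and Fmod) met the filter only through the group where they were high. The median difference was 0.00 over the 85 genes and 1.06 over the 23 with a mean of at least 5. Leaving out both arrays numbered 2 took both counts to 0 without the filter (17 and 3 at an unadjusted p under 0.05), and left 13 and 2 with it. These fits had fewer arrays per group. The share of all genes called was not computed for them, so the counts stand without a comparison.

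The called genes that were higher all belong to hyaluronan binding and turnover. Stab2, a scavenger receptor that clears hyaluronan from lymph, had 9.26 ± 0.167 (SD, n = 3) for double positive and 3.79 ± 0.606 (SD, n = 3) for CD31+, which is 5.47 in difference (adjusted p = 0.0259 in limma). Lyve1, the hyaluronan receptor of lymphatic endothelium, differed by 5.32 (adjusted p = 0.0111 in limma). Cemip2, which encodes a hyaluronan-degrading protein of the cell surface also known as TMEM2, had 6.84, 6.63 and 6.44 against 4.29, 3.97 and 3.63, a difference of 2.67 (adjusted p = 0.0362 in limma). Another probe set of Cemip2 differed by 0.94 and did not pass. With the replicate block none of these 3 genes passed in limma, with adjusted p = 0.186 for Stab2, 0.109 for Lyve1 and 0.120 for Cemip2. Stab1, a scavenger receptor related to Stab2, differed by 2.66 (adjusted p = 0.0521 in limma) and passed with the filter. Of the 15 measured genes of this kind, 6 lay within 0.1 of the floor on all arrays, among them Hyal3, Hyal4 and Spam1. Cd44 differed by 1.03 with overlapping groups, and Hmmr, an intracellular hyaluronan-binding protein of the mitotic spindle, by -0.69 without overlap. With the probe sets averaged, Cd44 differed by 0.325 and Hmmr by -0.137.

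Of 18 further chondroitin and dermatan sulfate or small leucine-rich proteoglycans, 1 passed as lower and 0 as higher. Esm1, which encodes endocan, a secreted dermatan sulfate proteoglycan of blood endothelium, had 2.63, 2.57 and 2.72 on the double-positive arrays and 5.92, 5.38 and 6.47 on the CD31+ arrays. All CD31+ values lay above 5 and all double-positive values near the floor, a difference of -3.28 (SE 0.304, adjusted p = 0.0476 in limma). Esm1 lost the call with the replicate block (adjusted p = 0.208 in limma) and with any 1 array left out. Fmod, which encodes fibromodulin, differed by -3.05 (adjusted p = 0.249 in limma) at an _x_at probe set, and its 5 other probe sets differed by -1.05 to 0.00. Srgn, which encodes serglycin, had 12.84 ± 0.116 (SD, n = 3) for double positive and 11.00 ± 0.499 (SD, n = 3) for CD31+, and the difference of 1.85 passed with the filter (adjusted p = 0.00324 in limma). Bcan, which encodes brevican, known from brain, differed by 2.32 at an _x_at probe set (adjusted p = 0.0850 in limma), and its other probe set stayed at 2.44 in both groups.

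Other heparan sulfate core proteins included Agrn (agrin), Col18a1 (collagen XVIII) and Tgfbr3 (betaglycan), which differed by 1.21, 2.02 and 1.47 and passed with the filter. With the filter and centred arrays Col18a1 still passed, at 1.34 (adjusted p = 0.0324 in limma), and the others did not. Col18a1 was also the gene of this list that passed over all probe sets with the replicate block (adjusted p = 0.0448 in limma). The second probe set of Col18a1 differed by 0.93 with overlapping groups and did not pass with the filter (adjusted p = 0.1325 in limma). The second probe sets of Agrn and Tgfbr3 lay at or near the floor and differed by 0.0 and 0.003. Hspg2, which encodes perlecan, differed by -0.79 at its brightest probe set and by 0.38 at the other, and neither passed. Hpse, which encodes heparanase, the enzyme that cuts heparan sulfate chains, had 4.92, 3.59 and 4.58 on the double-positive arrays and 2.54, 2.54 and 2.56 on the CD31+ arrays. The CD31+ values of Hpse were near the floor, and the difference of 1.82 did not pass (adjusted p = 0.209 in limma). Hs3st3a1, a further sulfotransferase, differed by 0.40.

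In precursor supply, Uxs1, which makes the xylose donor of the linker, had 9.23, 7.89 and 8.79 on the double-positive arrays and 5.74, 4.77 and 4.51 on the CD31+ arrays, which is 3.63 in difference (SE 0.519, adjusted p = 0.1004 in limma, 0.000487 with the filter). A second probe set of Uxs1 differed by 1.68 and also passed with the filter (adjusted p = 0.00889 in limma). Slc35b3, a transporter of the sulfate donor, differed by 0.59, and Papss2, which makes that donor, by -0.79. Of 15 chondroitin and dermatan sulfate enzymes 0 passed over all probe sets, and with the filter Chst14 and Csgalnact1, at 1.26 and 1.17, passed as higher, but neither did once the arrays were centred as well. Among 10 lysosomal enzymes that degrade these chains, Arsb (arylsulfatase B) differed by 2.43 (adjusted p = 0.105 in limma) and Gusb (beta-glucuronidase) by 1.16 (adjusted p = 0.0726 in limma).

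**Figure D5:**
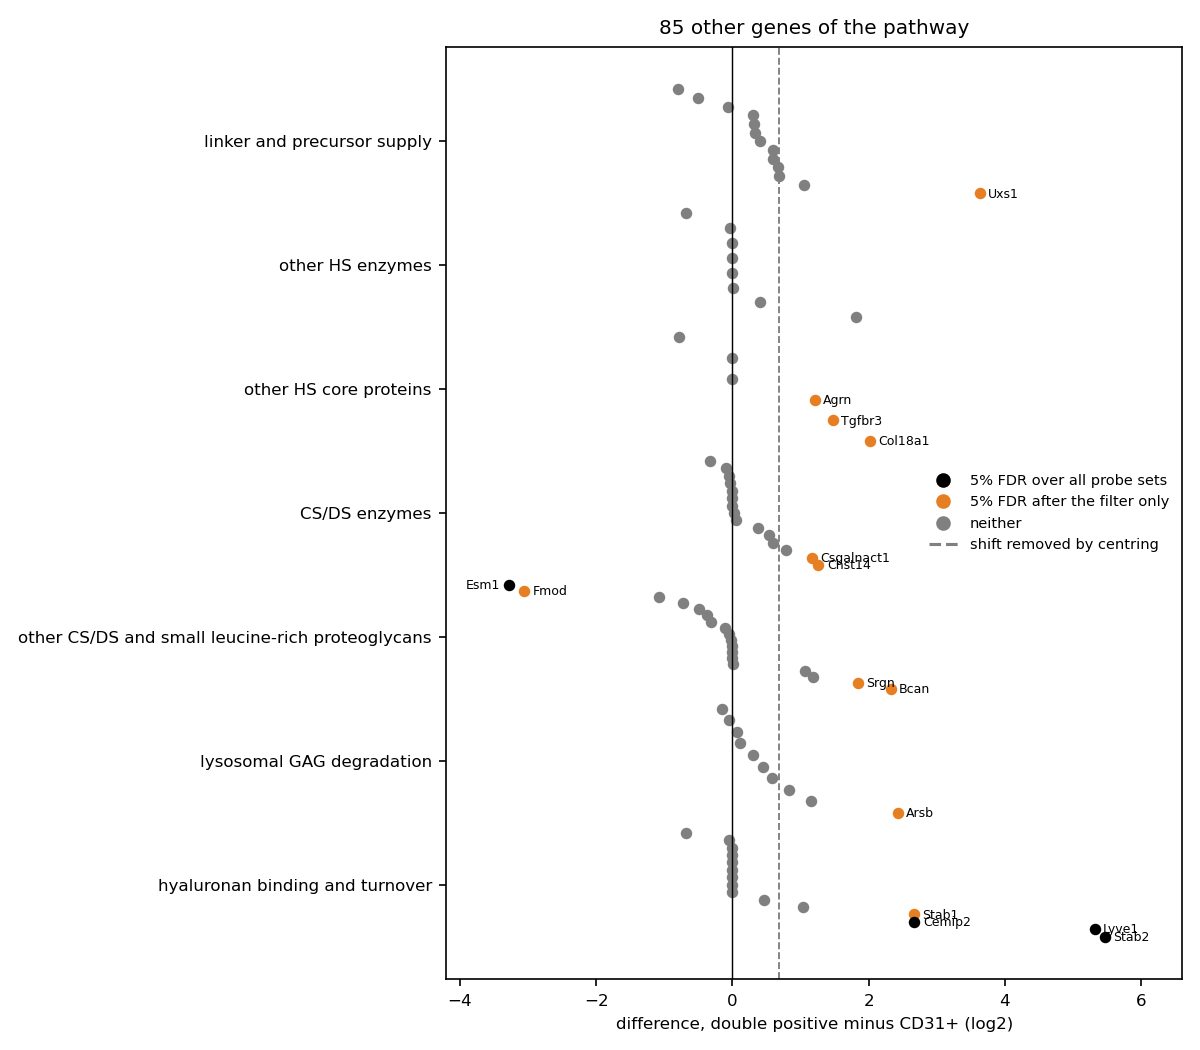
Differences of the 85 other genes of the pathway (double positive minus CD31+, log2, x axis), 1 point per gene at its brightest probe set, by group (HS, heparan sulfate; CS/DS, chondroitin and dermatan sulfate; GAG, the sugar chains). Black points passed 5% FDR over all probe sets (Stab2, Lyve1 and Cemip2 higher, Esm1 lower), orange points passed after the filter on dim probe sets, and the dashed line at 0.68 marks the shift that centring removes.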

How the data were processed

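RNA of sorted LN endothelial cells was hybridized to 6 GeneChip mouse genome arrays, 3 per group. After plots of pairwise reproducibility the authors normalized all arrays by GCRMA, and the deposited values are log2 RNA abundances, 1 per probe set and array. GCRMA subtracts background by probe sequence, so dim probe sets share a floor at which no difference can be seen. The versions are not given in the sources used here.

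Of 45101 probe sets, 64 controls were left out. Of the other 45037, 34945 map to 1 gene, 932 to several and 9160 to none in GEO's platform annotation, and 34741 of the 34945 were given current symbols from RefSeq. limma (version 3.58.1, R 4.3.3) with default lmFit and eBayes and 4 residual degrees of freedom was run on all 45037, with no filter or block, at 5% FDR (Benjamini-Hochberg), after the paper's methods. The prior degrees of freedom were 0.356, and 4.92 over the 6088 probe sets kept by the filter. The script was tested on simulated data. Plots used matplotlib 3.10.9 (Python 3.11.15).

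Deviations from the group means correlated at 0.341, 0.475 and 0.418 between arrays of the same number and at most at 0.0566 between others, over 5764 probe sets, and the design text calls the samples paired, so values with the replicate block are given where they change a call over all probe sets.

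The genes and lists were chosen with earlier results of these data known. Every listed gene is named with its values, and of each other list those called and the pair with the smallest adjusted p. Stab1, Cd44, Hmmr, Hyal3, Hyal4, Spam1, Fmod, Srgn, Tgfbr3, Hspg2, Papss2, Ogn, Aspn, Prelp and the single markers of other cell types were added after their values were seen. The markers of B cells, T cells and myeloid cells were dim and gave 0 calls in limma. Those of high endothelial venules also gave 0, but Glycam1 was bright on all arrays, at 12.11 to 14.93. With the filter Ackr1 and Selp passed as lower (adjusted p = 0.0034 and 0.022 in limma), and Ackr1 met the filter through its CD31+ arrays alone. Alternatives were the block, the filter, centring, eBayes with trend and robust, probe sets averaged or 1 per gene, any probe set, and each array left out. The removal of both arrays numbered 2, and the filter with arrays left out, were added after seeing the data. The number of arrays limits the precision.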

Additional observations from a re-analysis of the deposited data

How the results depend on the processing

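For the 32 genes, 1 called higher became 0 with the replicate block, 3 with the filter, 4 with the filter and the block, 3 with centred arrays, with or without the filter, 2 with 1 probe set per gene in the fit, 0 without both arrays numbered 2 and 3 with the filter without those arrays. With any 1 array left out it ran from 0 to 2 (Hs6st2, at 0.07, was the second gene without double positive replicate 2, and Sdc1 took the place of Sulf2 without CD31+ replicate 3). With the filter, kept as set on all 6 arrays, the count called higher was 3 each time. The count lower, 0, became 18 with centred arrays. Centring by construction moves every difference by -0.68, on the floor or above it, and Sulf1, Dcn, Sdc3 and Chst11 were among the 18. So were Has1 and Has2, whose values were the same on all arrays (adjusted p = 0.0128 in limma). The count lower was 1 with the filter and centred arrays, stayed 0 with any 1 array left out, and was 0 or 1 with the filter and 1 array left out. For the other pathway genes, 3 called higher became 1 with the replicate block (Col18a1, with all 3 lost), 13 with the filter, 14 with the filter and the block, 13 with centred arrays, 9 with the filter and centred arrays, 5 with averaged probe sets, 6 with 1 probe set per gene, 0 without both arrays numbered 2 and 13 with the filter without them, 1 or 2 with any 1 array left out, and with the filter 12, 15 and 11 without CD31+ replicates 1, 2 and 3 and 9, 12 and 9 without double positive replicates 1, 2 and 3. The count lower, 1, became 0 with the block, 2 with the filter, 3 with the filter and the block, 48 with centred arrays, 5 with the filter and centred arrays, 0 without both arrays numbered 2 and 2 with the filter without them, 0 with any 1 array left out and 2 to 3 with the filter. eBayes with trend and robust and calls at any probe set gave counts like those reported. The share of all genes called was computed only for the block, the filter, and the filter with the block or with centred arrays. The counts under the other alternatives therefore stand without a comparison to all genes.

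Of the single differences, 349 of the values under alternatives kept their sign and side of the threshold, 27 passed in addition, 7 (all of Sulf2) no longer passed and 31 changed sign, none of which had passed as reported. Centred arrays turned Chst11 to -0.64 (also with the filter), Ext2 to -0.36, Extl1 to -0.58, Glce to -0.44, Gpc1 to -0.38, Hs3st1 to -0.51, Hs6st1 to -0.48, Hs6st2 to -0.63, Hyal2 to -0.20 (also with the filter), Ndst2 to -0.55, Sdc2 to -0.05 and Vcan to -0.05. Averaged probe sets turned Hs6st2 to -0.04 and Sdc3 to 0.06. Without both arrays numbered 2, Dcn was 0.06, Ext1 0.03, Extl3 0.08 and Vcan -0.21. With any 1 array left out Chst11 ran from -0.17 to 0.15, Dcn from -1.27 to 0.17, Ext1 from -0.02 to 0.02, Extl3 from -0.20 to 0.02, Glce from -0.08 to 0.51, Gpc6 from -0.24 to 0.07 and Vcan from -0.59 to 1.28. The cause of these changes was not tested beyond the construction of the centring. Signal over background limits 20 of the 32 genes, which stayed below 5 on all arrays.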

Other observations

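The arrays numbered 2 shared a pattern that reached 2 of the 76 probe sets of these genes. At the brightest probe set of Vcan and the dimmer one of Dcn both arrays numbered 2 exceeded the other arrays of their group by at least 1 on the log2 scale, which was so for 464 of all 45037 probe sets (1.03%). The B1 repeat control was brightest on these 2 arrays as well. Its part in the values of Vcan and Dcn was not tested.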
